A study of Rattus norvegicus with 16 samples.

Results

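The liver of the rat was compared with 5 other organs by the small RNAs that it holds. Of the 16 small RNA libraries of the series, 6 were made from whole liver and 10 from brain, spleen, heart, testis and kidney, with 2 libraries for each of these organs. The livers were chosen by the tissue given for each library, so that no measured value entered the choice. All tissues were whole organs of untreated adult males of 2 inbred strains, BN-Lx and SHR, the spontaneously hypertensive rat. In the six-tissue set, 1 BN-Lx rat and 1 SHR rat gave all 6 organs, which makes 2 livers, named here liver 1 of each strain. The other 4 livers, livers 2 and 3 of each strain, came from 4 further rats and were a separate set, so 4 of the 6 livers have no other organ from the same animal or the same set beside them. All libraries hold the RNA of every cell type in the organ, and for each difference below, fewer cells of a type and less RNA per cell cannot be told apart.

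A microRNA is cut from a hairpin precursor, and either side of the hairpin, the 5p arm or the 3p arm, can give a mature strand. The mature strand guides silencing complexes to messenger RNAs, mainly by pairing of its seed, bases 2 to 8, to the target. In the liver, mir-122 is the classical hepatocyte microRNA and is known for its part in cholesterol and fatty acid metabolism and for the support that it gives to hepatitis C virus. Other microRNAs of hepatocytes are mir-192 and mir-194, which are shared with kidney and gut, and mir-33, which lies within the gene of the sterol regulator Srebf2.

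The sequences below are those of the arms on which the liver comparison turns. The first group holds arms that were higher in liver, with the seed in capitals.

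mir-122-5p: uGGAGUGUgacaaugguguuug
mir-122-3p: aACGCCAUcaucacacuaa
mir-802-5p: uCAGUAACaaagauucauccu
mir-802-3p: aCGGAGAGucuuugucacucagu
mir-193-5p: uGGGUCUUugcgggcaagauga
mir-193-3p: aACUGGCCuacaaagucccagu
mir-3559-5p: uGACAGACuuaguacuacauga
mir-31-5p: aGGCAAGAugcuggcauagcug
mir-192-5p: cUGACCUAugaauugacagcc
mir-194-2-5p: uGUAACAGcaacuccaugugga

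The second group holds arms that were lower in liver, among them 3 of the mir-181 family and a pair with the mir-204 seed, which share their capitals.

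mir-181a-2-5p: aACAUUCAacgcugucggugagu
mir-181c-5p: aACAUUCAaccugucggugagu
mir-181d-5p: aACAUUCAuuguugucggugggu
mir-204-5p: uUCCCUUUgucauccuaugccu
mir-211-5p: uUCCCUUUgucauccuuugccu
mir-494-3p: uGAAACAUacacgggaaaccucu
mir-135b-5p: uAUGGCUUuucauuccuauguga

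The sequences are RefSeq's for build GRCr8, except that those of mir-802 are read sequences of the study that were found in the RefSeq hairpin. Of the 467 arms tested, 361 had a sequence. In the 393 arms with a mature sequence and a liver read, the start with the most liver reads was the RefSeq start in 322. mir-122-5p lies at chr18:61028831-61028852 on the plus strand, with its hairpin within the extent of LOC134482951, a transcribed pseudogene, and mir-802-5p at chr11:46112378-46112398 on the plus strand, within the long noncoding LOC134480977. mir-192-5p lies at chr1:212994232-212994252 on the plus strand, and its hairpin has that of mir-194-2 within 10 kb. mir-193-5p lies at chr10:65170336-65170357 on the plus strand, within the extent of Faul2, and mir-31-5p at chr5:108714906-108714927 on the minus strand, within the long noncoding LOC130062807.

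Levels are given in rpm, the reads of an arm when the miRNA reads of its library are scaled to 1000000. The livers held 468081 to 3229461 reads and the other libraries 26880 to 1064894, and the lowest were the 2 testes with 26880 and 29131. An arm at 0 reads is compatible with up to 3 reads, which is 112 rpm in the BN-Lx testis and 103 in the SHR testis, against at most 7.44 in any other library. These limits, like the intervals below, cover counting error only. Reads were found for 711 arms in all, for 555 in at least 1 liver and for 323 in every liver. The 25 arms with a read in a liver and in no other library were weak, and the most read of them, let-7a-1-as-3p, had 89.3 reads over all livers. By the methods of the study, the liver of the SHR rat of the six-tissue set and the testes were amplified with more PCR cycles than the other libraries, and the part of this in the values was not tested.

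The marker of the hepatocyte was present in every library labelled liver. mir-122-5p was read in the livers at 266200 rpm at the lowest, 413300 at the median and 456500 at the highest, and in the other 10 libraries between 71.9 in the BN-Lx heart and 1079 in the BN-Lx testis. No liver came near any other library. Its share of all reads was 26.6% (95% exact binomial interval 26.5 to 26.7) in BN-Lx liver 1 and 32.2% (32.1 to 32.4) in SHR liver 1, and 39.9% to 45.6% in the 4 further livers. In the testes, the 29 and 21 reads of mir-122-5p gave 0.108% (0.0723 to 0.155) and 0.0721% (0.0446 to 0.110). The fitted difference between liver and the mean of the 5 other tissues was 12.61 on the log2 scale (SE 0.37, adjusted p = 1.13e-13, edgeR), and it was 11.55 (SE 0.18) with the 2 livers of the six-tissue set alone. The second marker, mir-31, a microRNA studied mainly in epithelia and tumours, was less uniform among the livers. mir-31-5p ran from 745 rpm in SHR liver 2 to 10120 in BN-Lx liver 1, with a median of 3742, against 172 to 2077 elsewhere, where both brains, both kidneys and the SHR heart reached the range of the livers. mir-31-3p ran from 458 to 1305, above all other libraries, which held 21.7 to 260.4. In the edgeR fit, whose TMM scaling is described below, both arms were higher in liver than in each of the other tissues. Its log2 differences for the 5p arm lay between 2.53 (SE 0.77, kidney) and 5.87 (SE 0.98, testis).

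**Figure D1:**
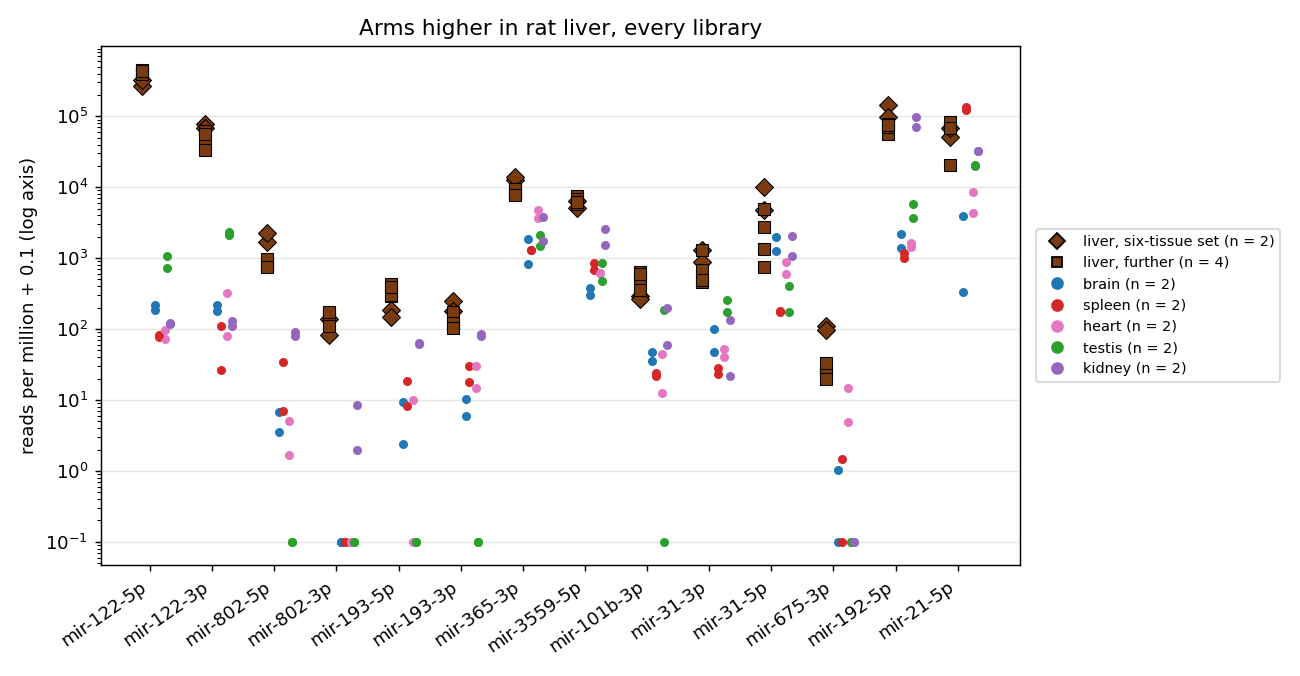
Level in rpm plus 0.1, on a log axis, of 14 arms in every library, with livers as diamonds (six-tissue set) or squares (further set) and the other tissues as coloured points, 2 a tissue. Every liver lies above every other library for mir-122, mir-802, mir-193, mir-365-3p, mir-3559-5p, mir-101b-3p, mir-31-3p and mir-675-3p (points at 0.1 are libraries at 0 reads, which in testis allow up to 112 rpm), whereas kidney reaches the livers for mir-192-5p and spleen lies above them for mir-21-5p.

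Liver reads were held by few arms. In both livers of the six-tissue set 50% of the reads were in 4 arms, and in the further livers in 2 or 3 arms. In the other tissues 6 to 15 arms were needed, fewest in spleen with 6 and 7 and most in brain and testis with 14 and 15. The means were 3.00 ± 0.894 (SD, n = 6) and 11.2 ± 3.33 (SD, n = 10), and the exact two-sided permutation test gave p = 0.00025, the smallest that it can give here. With the 2 livers of the six-tissue set alone the exact permutation test, which did not keep the rat as block, gave p = 0.0303. This was also the smallest that it can give for those libraries. With all reads of mir-122 set aside, a calculation added after seeing the data, the livers needed 7.50 ± 1.38 arms and the others 11.1 ± 3.21 (exact permutation p = 0.0295). These permutation tests shuffled the libraries freely, although the 10 others are 5 organs of 2 rats that each also gave a liver. Their p-values therefore do not measure the spread between rats. mir-122-5p was the arm with the most reads in all 6 livers. It was followed by mir-192-5p with 57100 to 145700 rpm, by mir-21-5p with 20500 to 84180, by mir-122-3p with 33950 to 77970 and by mir-145-5p with 37320 to 69550. The 8 arms with the highest liver medians also held mir-26a-5p (median 25430), mir-378-3p (16430) and mir-126-3p (16320). This order is one of reads, to which the cloning of each arm contributes.

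The tissue contrast was fitted for the 467 arms that passed a filter on low counts, as liver minus the equal-weight mean of the log2 levels of the 5 other tissues. At a Benjamini-Hochberg adjusted p under 0.05, 129 arms (27.6%) were higher in liver and 96 (20.6%) were lower. With the 2 livers of the six-tissue set alone, 458 arms were tested, of which 63 (13.8%) were higher and 56 (12.2%) lower. Of these, 61 and 49 were called the same way with all 16 libraries, and 0 the opposite way. The split depended on the scaling. TMM factors, which set the reference for these calls, were 0.379 to 0.834 in the livers and 0.931 to 2.50 in the other libraries, and the median log2 difference of all arms was -0.30. It was -1.45 under scaling by total reads, where 57 arms were higher and 174 lower. Scaling by the outlier-corrected mean of the study (the mean over arms without the 3 highest) gave 83 and 122, and RLE factors gave 107 and 114. Under all 4 scalings 57 arms (12.2%) were higher and 96 (20.6%) lower, and 43 (9.21%) and 49 (10.5%) of them were also called in the six-tissue set. The 96 are the lower calls of TMM and the 57 the higher calls of total reads, the scalings with the highest and the lowest median. Asking for all 4 scalings therefore removed no lower call of TMM, and these counts give no balance of the directions. Statements on direction below are limited to arms called under all 4 scalings, or name the exception. In rpm, every liver lay above every other library for 13 arms (2.78%) and below every other library for 31 (6.64%). For 5 of the 13, mir-193-3p, mir-292-3p, mir-423-5p, mir-675-3p and mir-802-3p, at least 1 testis had 0 reads with a limit above the lowest liver, so that their order against testis was not detectable at this depth. Among the 31, mir-135b-5p and mir-485-3p had livers at 0 reads with a limit above the lowest other library.

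The liver was higher than each of the 5 other tissues, tested one at a time, in 26 arms (5.57%) of 22 hairpins, and lower than each in 2 (0.428%). In the six-tissue set these were 11 (2.40%), all of them among the 26, and 1 (0.218%), mir-7a-1-3p, which was not among the 2. The count of 26 moved with single libraries. It was 9 and 10 without the BN-Lx or the SHR heart, 11 and 16 without the BN-Lx or the SHR kidney, 13 without either spleen, 14 without the SHR testis, 17 without either brain and 16 without BN-Lx liver 2 or SHR liver 3. The balance of higher and lower arms turned over with the scaling, with 22 and 4 under RLE, 13 and 10 under the outlier-corrected mean and 7 and 23 under total reads. Against the mean of the tissues, 24 of the 26 were higher under all 4 scalings, the exceptions being let-7a-1-5p and let-7a-2-5p, which have the same mature sequence and share their reads.

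On the outlier-corrected scale, 4 arms had values at least 5-fold higher in every liver than in every other library, both of mir-122 and both of mir-802. For mir-802-3p this holds for the values as read, since the testes at 0 reads allow up to 112 and 103 rpm, above the lowest liver. For mir-122-5p the lowest liver on the outlier-corrected scale was 343 times the highest other library, and for mir-122-3p 23.9 times, both against the BN-Lx testis. mir-802 is a hepatic microRNA studied for its part in glucose metabolism. mir-802-5p was read at 754.9 rpm in the lowest liver, 925.9 at the median and 2261 in the highest. In the other tissues it was seen at 90.05 and 80.3 in the kidneys, at 34.2 and 6.78 in the spleens, at 6.57 or less in brain and heart, and had no read in the testes. The log2 difference to kidney was 4.94 (SE 0.74, adjusted p = 0.00022, edgeR) and that to spleen 6.87 (SE 0.83). mir-802-3p ran from 83.3 to 172.4 in the livers, and had 6 reads in all other libraries together, all in kidney. Against the kidneys, the highest of the libraries with a read, the lowest liver was 15.3 times as high for the 5p arm and 16.4 times for the 3p arm. These ratios are on the outlier-corrected scale and not in rpm. The next arms below the 5-fold limit were mir-193-5p at 3.42 times, mir-3559-5p at 2.98 and mir-31-3p at 2.85.

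The mir-193 and mir-365 families are known from brown fat. For mir-193-5p the livers held 145.6, 298.4 and 429.1 rpm (lowest, median, highest). The kidneys came closest with 64.3 and 61.9, the other tissues held at most 18.1 and the testes and the SHR heart no read. The log2 difference to kidney was 3.62 (SE 0.99, adjusted p = 0.0149, edgeR). mir-193-3p gave 102.5 to 252.1 in the livers and at most 84.5 elsewhere. mir-365-3p had 7652 to 14090 in the livers and 838.6 to 4781 elsewhere, highest in the SHR heart (log2 difference to the mean 3.61, SE 0.28, adjusted p = 3.03e-08). mir-3559-5p, from a hairpin within the extent of Zdhhc15, had 5076 to 7547 rpm against 303.3 to 2566 elsewhere (log2 difference 4.56, SE 0.30). mir-101b-3p ran from 263.4 to 629.8, and the nearest other libraries were the SHR kidney with 195.7 and the BN-Lx testis with 186. mir-675-3p, which is cut from the imprinted growth-related RNA H19, was weak in the livers, at 95.8 and 109.0 in the six-tissue set and 19.5 to 32.9 in the further livers. Outside the liver it had 11 reads, with most in the hearts at 14.9 and 4.76 rpm. For mir-802, mir-193 and mir-675-3p the fitted difference to the mean rests in part on tissues with no read, so it depends on the prior count and is not given here.

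Several abundant liver arms were also abundant in 1 or 2 other organs. The tests against single tissues used TMM scaling. Of the 57 arms higher under all 4 scalings, 54 were higher than brain, 46 than testis, 45 than heart, 43 than spleen and 42 than kidney, and 24 were higher than all 5. Kidney was the partner for the mir-192 and mir-194 cluster. mir-192-5p held 97220 and 71120 rpm in the kidneys, within the range of the livers, and 1015 to 5878 in the other 8 libraries, with a log2 difference to kidney of 1.27 (SE 0.36, adjusted p = 0.0162) and of 6.30 or more to each of the others.  mir-194-2-5p, from the hairpin beside it, had 689 to 2923 in the livers, 866 and 2831 in the kidneys and at most 149 elsewhere, and did not pass the test against kidney (1.19, SE 0.61). Spleen was the partner for mir-21-5p and mir-142-3p. mir-21-5p had 120900 and 133400 in the spleens, above every liver, and 331.2 to 32810 in the other libraries. The log2 difference to spleen was -0.08 (SE 0.68). mir-142-3p, a microRNA of blood cells, had 77.8 to 360.6 in the livers and 1890 and 2497 in the spleens, and had no read in the testes. It was lower in liver than in spleen (log2 difference -2.36, SE 0.63, adjusted p = 0.0137) and higher than in brain, heart and kidney. Heart and kidney were partners for mir-126-3p of the endothelium and mir-378-3p, which lies in the gene of Ppargc1b, a coactivator of mitochondrial genes. mir-126-3p had 8001 to 24610 in the livers, 20600 and 16200 in the hearts and 17210 and 17990 in the kidneys. mir-378-3p had 2919 in SHR liver 1, 14200 to 20690 in the other livers, 9025 and 27770 in the hearts and 16810 and 19360 in the kidneys. Neither passed the test against heart or kidney, and against the mean mir-378-3p did not pass it in the six-tissue set (1.29).

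**Figure D2:**
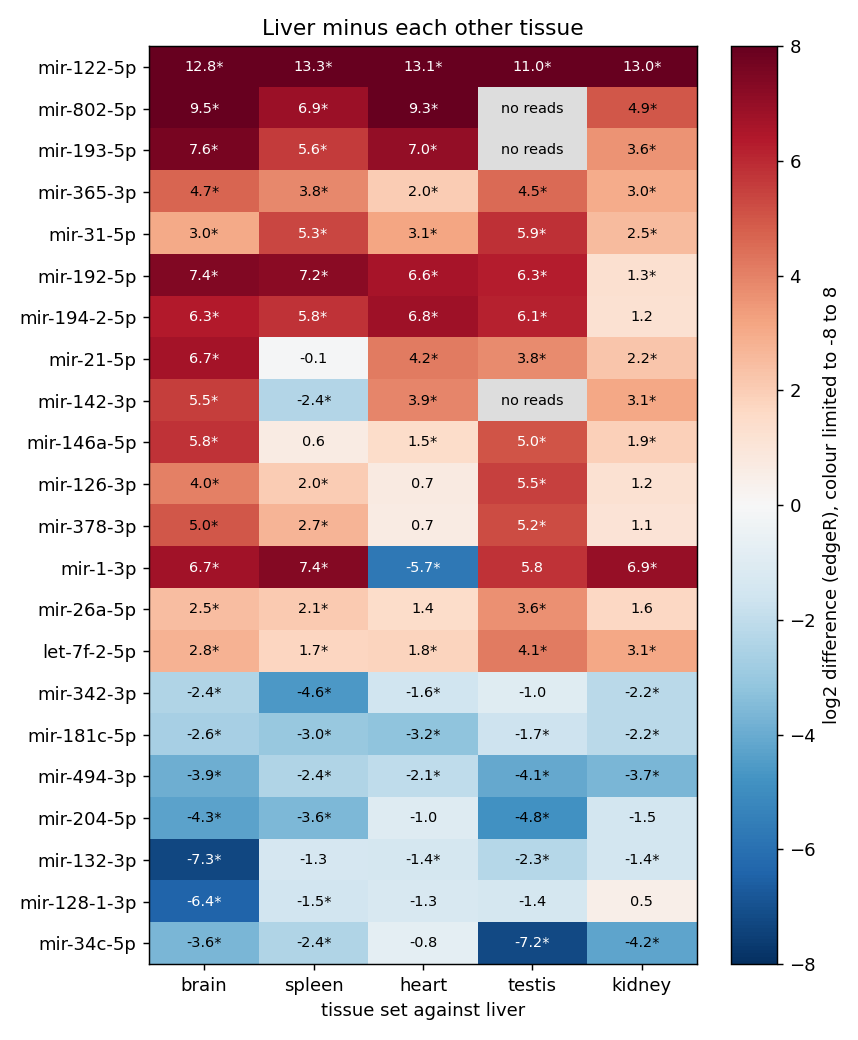
Log2 difference between liver and each other tissue for 22 arms in edgeR with TMM scaling, as colour and number, with a star where the adjusted p was under 0.05 and a grey field where both libraries of the tissue had no read. mir-122-5p is higher than all 5 tissues by 10.96 or more, mir-192-5p by 1.27 to 7.40, while mir-142-3p is lower than spleen and mir-1-3p lower than heart. In rpm, the kidneys lie within the range of the livers for mir-192-5p.

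Among the hepatocyte and lipid microRNAs of the list used here, 13 hairpins with 23 arms tested, 14 arms were higher (11 under all 4 scalings) and 3 were lower (3 under all 4). Over all arms these shares were 27.6%, 12.2% and, for lower under all 4, 20.6%. Their median log2 difference was 1.98, beside -0.30 for all arms tested. The 11 were both arms of mir-122, mir-802 and mir-192, the 5p arms of both mir-194 hairpins, mir-101b-3p, mir-378-3p and mir-33-3p. mir-33-3p, from the Srebf2 gene, had 233 to 498 rpm in the livers and 52.0 to 446 elsewhere, with the hearts (52.0 and 61.9) and the kidneys (191 and 172) below every liver. The 3 lower arms were mir-34a-3p and the 3p arms of both mir-103 hairpins, which share their reads. mir-103-2-3p, a microRNA known from insulin sensitivity, had 2493 to 9919 in the livers, the highest of them the 2 of the six-tissue set, and 9759 to 55740 elsewhere (log2 difference -0.88, SE 0.26, adjusted p = 0.0112). In the six-tissue set this arm gave -0.46 and did not pass the test. Summed over the list, the livers held 530600 to 595800 rpm, and the others 46130 to 206800, the highest in kidney.

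**Figure D3:**
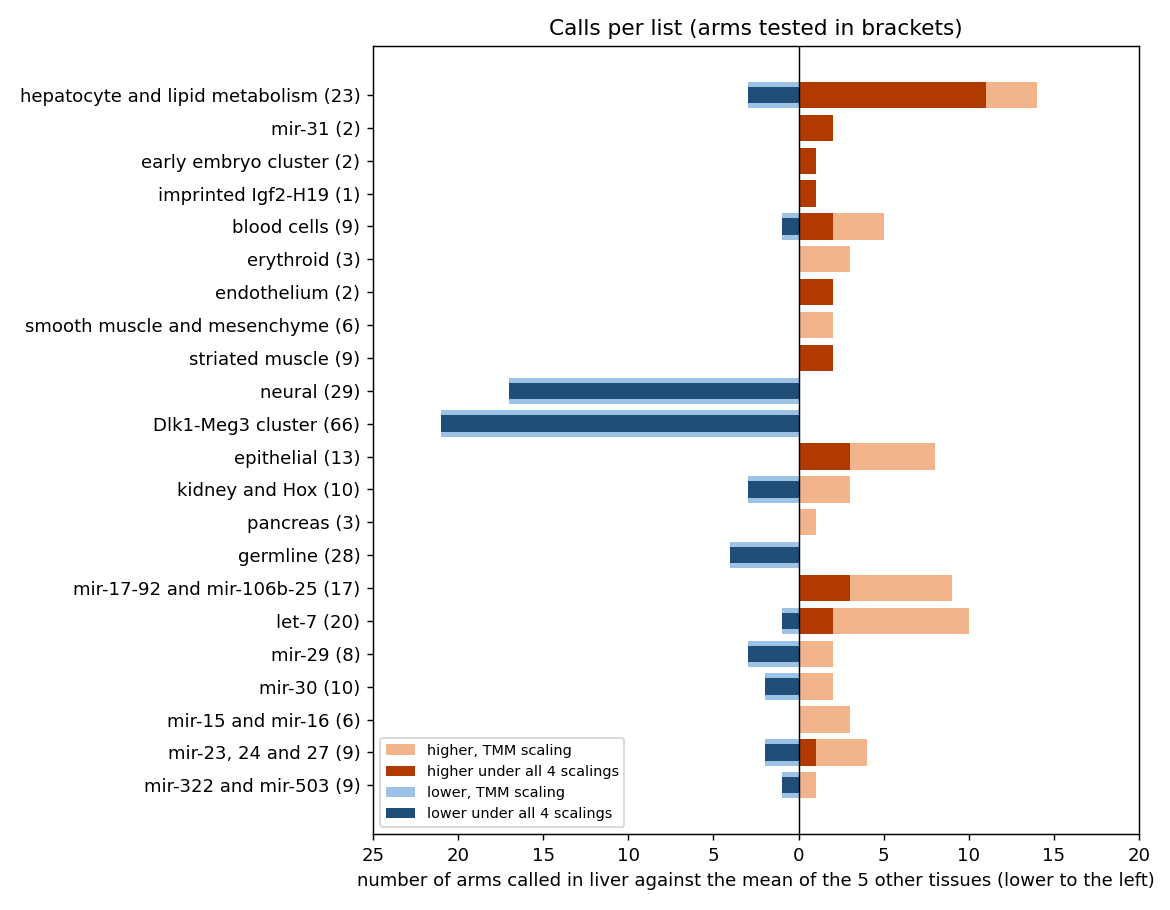
Number of arms called higher (right) or lower (left) in liver than the mean of the 5 other tissues for 22 lists of hairpins, pale for TMM scaling and dark for calls under all 4 scalings, with arms tested in brackets. The hepatocyte list has 14 calls higher, and the neural and Dlk1-Meg3 lists have 17 and 21 calls lower and none higher. Outside liver, the summed levels of these last lists are by far highest in brain.

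Of the general families, let-7 had 10 of 20 arms higher but only 2 of them under all 4 scalings, those of let-7f-1 and let-7f-2, which share their mature strand, beside 27.6% and 12.2% over all arms. let-7i-3p was lower under all 4 scalings and in the six-tissue set. let-7f-2-5p had 9890 to 16980 rpm in the livers and 2772 to 10130 elsewhere (log2 difference 2.70, SE 0.28). The mir-17-92 and mir-106b-25 clusters had 9 of 17 higher, of which 3 held under all 4 scalings, mir-19a-3p among them with 780 to 9935 in the livers. In the six-tissue set, mir-19a-3p gave 1.08 and did not pass the test. The mir-29, mir-30 and mir-23, 24 and 27 lists had 3 of 8, 2 of 10 and 2 of 9 arms lower, all under all 4 scalings, and 2, 2 and 4 higher, of which mir-27b-3p held under all 4, beside 20.6% lower and 27.6% higher over all arms. In the six-tissue set with the rat as block, 2 of the 3 lower mir-29 arms were called and 0 of the mir-30c and mir-24 arms, the latter at -0.21 (mir-24-1-3p). Of the mir-15 and mir-16 list 3 of 6 were higher under TMM and 0 under all 4 scalings, and of the mir-322 and mir-503 list 1 of 9 was higher under TMM and 1 lower under all 4. mir-29b-1-3p and mir-29b-2-3p, a shared strand of a family known for silencing collagen messengers, lay below every other library with at most 1125 against at least 2552. The sums of both families differed by liver set. Summed, the mir-29 list held 53260 and 56700 rpm in the livers of the six-tissue set and 2021 to 12760 in the further livers, against 51570 to 208800 elsewhere. The mir-30 list held 35250 and 43280, 15410 to 26040, and 34350 to 165800 in the same order. mir-145-5p gave no stable direction. It was higher by 0.74 (SE 0.26, adjusted p = 0.0258) under TMM, and lower by -0.71 under total reads and by -0.19 in the six-tissue set. mir-26a-5p was higher by 2.26 under all 4 scalings, yet in the six-tissue set by 0.51, without passing the test. Its 2 livers of that set held 10490 and 10370 rpm and the 4 further ones 25410 to 28350.

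Of the 96 lower under all 4 scalings, 84 were lower than brain, 47 than testis, 46 than kidney, 35 than heart and 33 than spleen, and 13 were lower than brain alone. Among arms with separate groups, called in both sets and with a mean of at least 100 rpm over the other libraries, the 8 largest falls began with mir-135b-5p, whose liver values were 0 in 4 livers, 2.14 in BN-Lx liver 1 and 2.57 in BN-Lx liver 3. Brain and testis held 1161 to 3088 rpm of it and the other tissues 4.07 to 25.7 (log2 difference -5.64, SE 0.70, adjusted p = 7.75e-06). mir-485-3p had 0 to 0.978 in the livers and 2.71 to 496.2 elsewhere. For mir-135b-5p and mir-485-3p, SHR liver 1 was at 0 reads, which allows up to 5.99 rpm, above the lowest other library. For mir-485-3p BN-Lx liver 1 was at 0 reads too, with a limit of 6.41 rpm, so that its call in the six-tissue set rests on livers without a read. The order of both arms against the lowest other libraries was therefore not detectable at this depth. mir-487b-3p and mir-132-3p, the latter a neuronal activity-linked microRNA, had 6.19 to 21.9 and 6.57 to 21.9 in the livers, 7933 and 8851 or 5568 and 6560 in the brains and at least 36.6 and 41.8 elsewhere. mir-204-5p, of epithelia and the eye, had 21.9 to 220.2 in the livers, and lay between 433.8 in the BN-Lx heart and 17600 in the BN-Lx testis elsewhere. mir-342-3p, of lymphoid cells, had 79.0 to 193 in 5 livers and 521 in SHR liver 1, against 910.4 to 7648, the highest in spleen.

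Against every one of the 5 tissues, 2 arms were lower. mir-494-3p, of the Dlk1-Meg3 cluster, had 34.2 and 21.9 rpm in the six-tissue livers and 3.65 to 11.1 in the further livers. Elsewhere it ran from 62.3 in the BN-Lx spleen to 1042 in the BN-Lx testis, and the log2 differences were -2.05 (SE 0.55, heart) to -4.12 (SE 0.55, testis). mir-181c-5p, of a family studied in lymphocytes and brain, had 9.42 to 49.9 in the livers, and a narrow 175 to 501.5 in the other 10 libraries. Its differences were -1.66 (SE 0.57, testis) to -3.24 (SE 0.47, heart). The count of 2 was 0 without either heart, 1 without the BN-Lx testis, the SHR spleen, the SHR kidney or SHR liver 2, and 6 without SHR liver 1. The 5p arms of mir-181a-1, mir-181a-2, mir-181b-1, mir-181b-2, mir-181c and mir-181d, were all lower under all 4 scalings. Those of mir-181b-1, mir-181b-2 and mir-181d were not called in the six-tissue set. This group was singled out after its values were seen. mir-204-5p and mir-211-5p were both lower, with a median of -3.07, 3 of 4 arms with the seed GGCAGUG of mir-34 and mir-449 were lower, with a median of -3.10, and the 3 arms of mir-9 with the seed CUUUGGU, which share their reads, were lower, with a median of -2.48. With the six-tissue set alone and the rat as block, mir-204-5p and mir-34c-5p were called among these, while mir-211-5p, mir-34b-5p, mir-449a-5p and the mir-9 arms were not, and the mir-9 arms were lower than brain alone. For mir-194, both arms with the seed GUAACAG were higher, with a median of 5.39. Arms with the same mature strand share divided reads and are not independent.

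**Figure D4:**
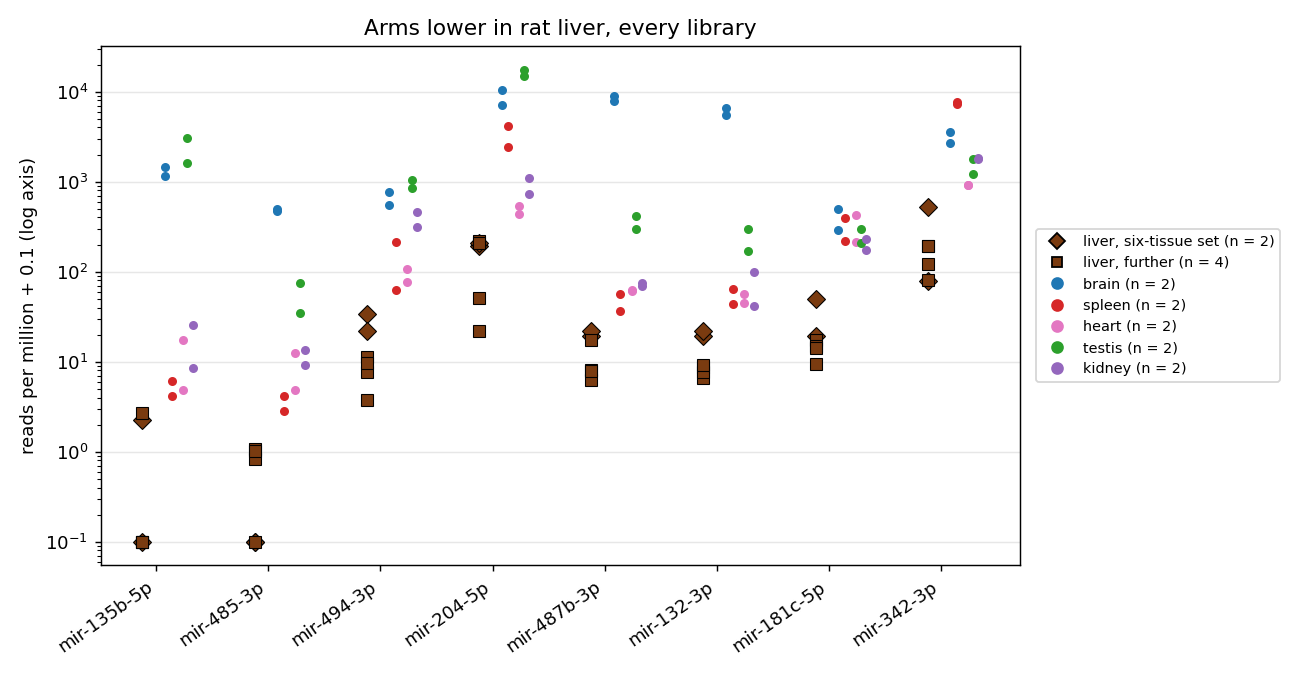
Level in rpm plus 0.1, on a log axis, in every library, of the 8 arms with the largest falls among those with separate groups, calls in both sets and a mean of at least 100 rpm outside liver (symbols as in the plot of higher arms). As read, the livers lie between 0 and 521 rpm and below every other library for each arm, and mir-494-3p and mir-181c-5p are lower than each of the 5 tissues. For mir-135b-5p and mir-485-3p, SHR liver 1 at 0 reads allows up to 5.99 rpm, above the lowest other library. For mir-485-3p, BN-Lx liver 1 is also at 0 reads, with a limit of 6.41 rpm.

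By list, the neural microRNAs had 17 of 29 arms lower and 0 higher (8 of them also in the six-tissue set), with a median of -2.46, beside 20.6% lower, 10.5% lower in both sets and 27.6% higher over all arms. Their sum was 388.5 to 999.6 rpm in the livers, against 1024 to 186200, the highest in brain. By tissue it averaged 165600 in brain, 8640 in testis, 3540 in spleen, 1513 in heart and 1217 in kidney. Each of the 17 arms was lower than brain in the single-tissue tests. They did not pass against heart, and against kidney only mir-219-2-3p, mir-9-1-3p and mir-9-2-3p did. mir-128-1-3p, for example, had 26.65 to 287 in the livers, 29290 and 30570 in the brains and 124.6 and 204 in the kidneys, which lay within the range of the livers. The Dlk1-Meg3 cluster, an imprinted cluster of microRNAs active in brain and embryo, had 21 of 66 lower and 0 higher (12 of them also in the six-tissue set), with a median of -1.55 and a summed level of 124.9 to 677.2 in the livers against 461.6 to 53020. By tissue this sum averaged 51220 in brain, 4664 in testis, 1168 in kidney, 871.1 in spleen and 613.7 in heart. Of the germline list, 4 of 28 were lower (2 of them also in the six-tissue set), a smaller share than the 20.6% over all arms. mir-34c-5p had 5.54 to 95.8 in the livers and 13910 and 25230 in the testes. The germline list summed to 24.8 to 508.7 in the livers and to 274.4 to 243900 elsewhere, and mir-202-5p, which reached 42570 in testis, had at most 1.99. Its log2 difference to the mean was -5.09 with an SE of 36740, so the fit could not call it. The share of this list called lower therefore leaves out falls of this kind and is no measure of their size. In the kidney and Hox list 3 of 10 were lower under all 4 scalings and 3 higher, the latter under some scalings only.

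Of the lists for cells other than hepatocytes, those of blood cells, red cells, endothelium, smooth muscle and epithelia had reads in all 6 livers. The counts that follow stand beside 27.6% higher, 12.2% higher under all 4 scalings and 20.6% lower over all arms. For blood cells, 5 hairpins with 9 arms tested had 5 higher (2 under all 4 scalings) and 1 lower, with a summed level of 5867 to 16990 rpm in the livers and 8625 to 198300 elsewhere, the highest in spleen. mir-223-3p of myeloid cells had 3707 to 8599 in the livers. For red cells, mir-144 and mir-451 summed to 2139 to 9413 in the livers and to 1744 to 90670 elsewhere, and 3 of 3 arms were higher under TMM and 0 under all 4 scalings. For endothelium, both arms of mir-126 were higher than the mean under all 4 scalings, with a sum of 9663 and 10910 in the six-tissue livers and 22990 to 31990 in the further ones. Elsewhere the sum was 1860 to 23340. The averages of heart (20960) and kidney (19590) lay above both six-tissue livers. mir-511-3p, from the macrophage receptor gene Mrc1, had 89.7 and 112 in the six-tissue livers, 933 to 1126 in the further livers and 1.67 to 343 elsewhere, highest in the testes. It was higher than each tissue with all 6 livers, but not with the 2 livers of the six-tissue set and the rat as block, which lay below the testes. For smooth muscle and mesenchyme, 2 of 6 were higher under TMM and 0 under all 4 scalings, with sums of 41000 to 73530 against 20820 to 206600. For striated muscle the livers held 23.1 to 752.8 and the hearts 38300 on average. mir-1-3p stood at 5.84 to 57.7 in 4 livers and at 528 and 498 in BN-Lx liver 3 and SHR liver 3, was lower than heart (-5.74, SE 1.26) and was called higher than the mean, though not in the six-tissue set. mir-206-3p was called higher than the mean and than 0 of the single tissues. For epithelia, 8 of 13 were higher (3 under all 4 scalings), with mir-203-3p at 533 to 820.4 in the livers and 1505 and 2509 in the kidneys. The pancreas list had 1 of 3 higher and a sum of at most 136.6, with mir-216a and mir-216b at no read in the livers. The part of cells other than hepatocytes in the differences above was not tested.

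Of the early embryo cluster, mir-292-3p had 10.7 to 25.1 rpm in the livers and at most 6.69 in the other libraries, with 0 reads in the testes, whose limit lies above the livers. It did not pass the test against spleen (adjusted p = 0.0512, edgeR) or testis (adjusted p = 0.0677), and the sum of its 5 hairpins was 21.9 to 52.95 against 0 to 37.2. mir-292-3p was not among the arms tested in the six-tissue set. mir-483 of Igf2 was at most 9.42 in the livers and 14.9 in the BN-Lx heart. Against the single tissues, liver had 134 higher and 189 lower arms (28.7% and 40.5%) in the contrast with brain, 53 and 68 (11.3% and 14.6%) with spleen, 70 and 63 (15.0% and 13.5%) with heart, 95 and 82 (20.3% and 17.6%) with testis and 59 and 76 (12.6% and 16.3%) with kidney. These counts share the 6 livers and depend on the depth of each tissue.

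The use of both arms was compared by the log2 ratio of 5p to 3p reads in the 78 hairpins with at least 20 reads of both arms together in every library. In limma, 16 (20.5%) differed between liver and the mean of the other tissues, 13 toward 5p and 3 toward 3p, and in 0 hairpins did every liver lead with one arm and every other library with the other. Of the 78, mir-122 was the only one with separate groups. Its 5p arm held 77.3%, 82.7% and 86.6% to 92.7% of its reads in BN-Lx liver 1, SHR liver 1 and the further livers, and 23.2% to 75.9% in the other libraries, with a median of 87.5% against 48.1%. The 75.9% was that of the SHR spleen and rests on 41 reads of the 5p and 13 of the 3p arm. The narrow gap to 77.3% was not tested against counting error. The difference was 3.13 (SE 0.46, adjusted p = 0.000535). With the 2 livers of the six-tissue set alone it was 2.35 (SE 0.64, adjusted p = 0.186, limma), and the hairpin called there was mir-7a-1 (5.36, SE 0.50). Its 5p arm held 89.8% and 93.2% in the livers of the six-tissue set, but 30.7% to 49.2% in the further livers, against 5.88% to 57.0% elsewhere. The further livers therefore lay within the range of the other tissues. mir-22 gave 63.6% to 70.1% in the livers and 16.8% to 66.7% elsewhere (difference 1.41, SE 0.38, adjusted p = 0.0249). mir-872 gave 36.7% and 38.8% in the six-tissue livers, 68.1% to 74.7% in the further livers and 21.1% to 40.8% elsewhere, so that only the further livers stood apart. In 11 of the 16 hairpins the minor arm had 0 reads in at least 1 library, so their ratio moves with depth through the pseudocount of 0.5. Among them were the largest differences toward 5p, let-7a-2 with 4.00 and mir-18a with 3.83, and toward 3p, mir-365 with -4.05, mir-19a with -3.08 and mir-19b-2 with -1.91. At a minimum of 100 reads, limma called 0 of 36 hairpins, with 11 at an unadjusted p under 0.05. mir-122 was not among the 36, since the BN-Lx heart held only 29 and 32 reads of its arms.

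**Figure D5:**
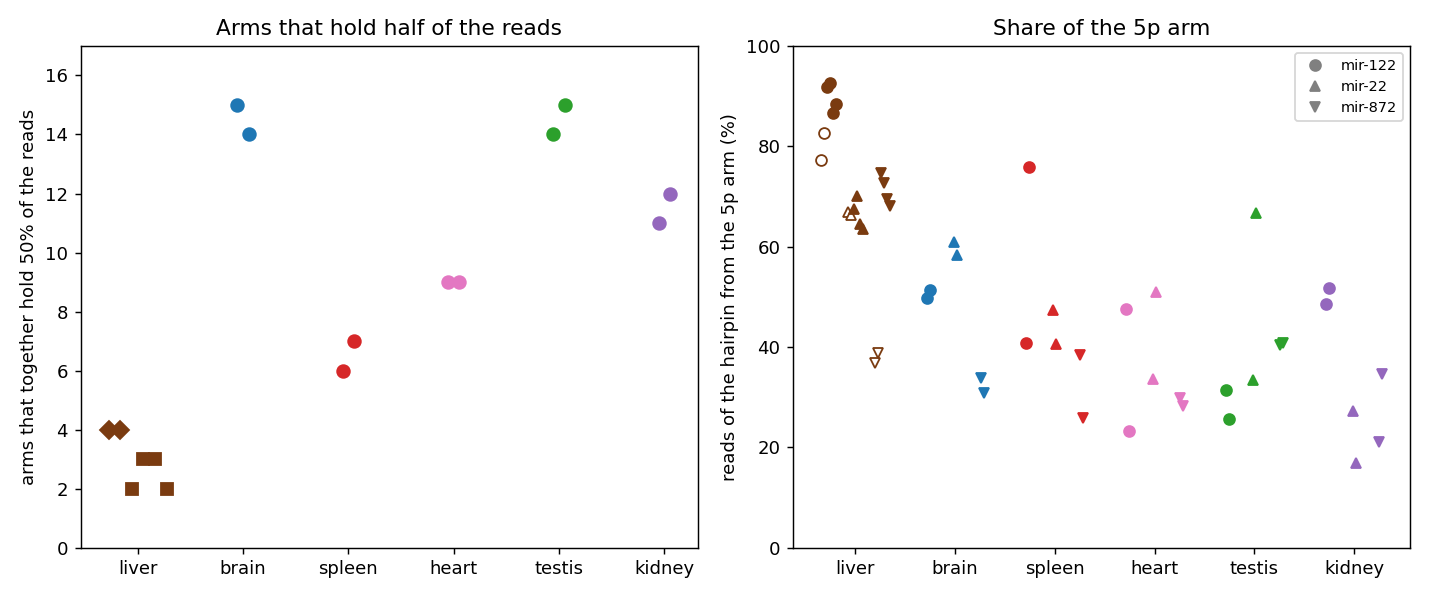
Left, number of arms that together hold 50% of the reads of each library. Right, percent of reads from the 5p arm of mir-122, mir-22 and mir-872 in each library, with open symbols for the 2 livers of the six-tissue set. Livers need 2 to 4 arms and other tissues 6 to 15, and the mir-122 5p arm holds 77.3% or more in livers and 75.9% or less elsewhere. The 75.9%, in the SHR spleen, rests on 41 reads of the 5p and 13 of the 3p arm.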

How the data were processed

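Gel-selected small RNA was cloned and sequenced on SOLiD by the authors, classified with miRIntess and mapped again to the hairpins with SHRiMP, keeping perfect matches. The deposited files list, per position on a hairpin, reads divided evenly over their hits, which are expected counts. They were summed per hairpin and arm, with the arm boundary at the middle of the read span, or of the hairpin where the reads covered a single arm. Hairpins whose file name was not in the lists of the study were named through equal reads in the supplementary sequences of the study (34 hairpins), and 60 kept their file name. Rounded counts were tested with edgeR 4.0.16 (quasi-likelihood, TMM, tissue and strain as terms, filterByExpr by tissue) and arm ratios with limma 3.58.1 in R 4.3.3, both checked on simulated data, and DESeq2 1.42.0 was an alternative. In the six-tissue set strain is the rat and so the block. Positions and genes come from RefSeq GRCr8, which is not the genome used by the authors.

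The 12 libraries of the six-tissue set come from 2 rats and the further livers from 1 rat each, and p-values measure the spread between these 16 libraries. The members and gene lists were chosen with earlier results of these data known, so that no list is independent evidence. Arms were named by a rule: mir-122 and mir-31, the 8 highest liver medians, the 8 largest changes each way among arms called in both sets with separate groups and at least 100 rpm, up to 4 arms a list, arms past the 5-fold limit and the 3 largest arm ratio differences each way. mir-142-3p, mir-194, mir-211, mir-511-3p, mir-33-3p, mir-7a-1 and the mir-181, mir-34 and mir-9 arms were named after their values were seen. Alternatives were changed one at a time. Restriction to reads of at least 17 nt and the removal of mir-122 reads were chosen after seeing the data.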

Additional observations from a re-analysis of the deposited data

Results flagged for a closer look

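In the group of 6 livers, SHR liver 1 lay far from the other 5 in 3 of the 33 values examined, by the gap to the nearest liver over the whole range (Dixon's rule). mir-378-3p was at 2920 rpm in it and at 14200 to 20700 in the others (0.633). mir-181c-5p was at 49.9 against 9.42 to 19.2 (0.758), and mir-342-3p at 521 against 79.0 to 193 (0.742). SHR liver 1 is one of the 2 livers of the six-tissue set and, by the methods of the study, had more PCR cycles than the other livers. The part of this in the 3 values was not tested. Chance alone flags about 1 in 20 such groups if their values are normal and independent, but the 33 groups share the same 6 libraries.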

How the results depend on the processing

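Of the 31 arms whose difference to the mean was recomputed under the alternatives, 23 kept their direction and their side of the threshold in all alternatives run, and 30 kept their direction. mir-26a-5p, mir-378-3p, mir-103-2-3p, mir-19a-3p and mir-1-3p did not pass the threshold in the six-tissue set, and mir-135b-5p and mir-485-3p did not when thinned. mir-145-5p reversed in the six-tissue set with the rat as block (-0.19), with the set as a batch term (-0.19) and under total reads (-0.71). The counts of arms higher and lower moved by more than 1.5 times in the six-tissue set with the rat as replicate block (63 and 56), with the set as a batch term (73 and 48), thinned to the shallowest library (64 and 47, of only 248 arms tested) and under total reads (57 and 174), and higher arms under the outlier-corrected mean (83). Leaving out 1 library gave 116 to 144 higher and 84 to 102 lower. Arms higher than each tissue were 11 in the six-tissue set and with the batch term, 13 under the outlier-corrected mean, 7 under total reads, 15 thinned, 17 with paralogues summed and 9 to 29 with 1 library left out. Arms lower than each tissue were 1 in the six-tissue set, with the batch term, with no filter and thinned, 4 with RLE or paralogues summed, 5 with 20 reads in every library of a tissue, 6 with DESeq2 or without testis, 9 with the further livers only, 10 under the outlier-corrected mean, 23 under total reads and 0 to 6 with 1 library left out. The 4 arms at 5-fold in every liver over every other library were 12 at 2-fold, and at 5-fold 4 or 5 when a liver was left out. The difference in arms that hold 50% of the reads ranged from -8.78 to -7.78 with 1 library left out. Hairpins with an arm ratio difference numbered 0 at 100 reads, 1 in the six-tissue set with the rat as block and 4 to 28 with 1 library left out, with 4 to 7 without 1 of the further livers or without the SHR brain or spleen and 23 and 28 without BN-Lx liver 1 or SHR liver 1. The cause was not tested. At 100 reads mir-122 was not among the hairpins tested. Depth limits the testes most.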
